A study of Homo sapiens with 21 samples.

Results

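DNA replication and origin licensing were followed through 37 genes, taken by symbol from the 60668 gene rows that each of the deposited count tables holds. All 37 were found in both tables, and all 37 passed the filter on low counts in both. The genes encode the origin recognition and helicase loading factors, the MCM helicase and its activators, the polymerases with primase, the sliding clamp and its loader, the flap and ligation enzymes of the lagging strand, the single-strand binding protein RPA, fork protection factors, the methylation maintenance factor UHRF1, and the activating transcription factors E2F1 and E2F2. The RNA came from HCC1806, an established cell line of triple negative breast cancer, a tumour class that lacks the estrogen and progesterone receptors and HER2 amplification. The cells grew as flat (2D) cultures in serum-supplemented medium and were harvested at about 90% confluence. There were 21 libraries, 3 in each of 7 groups. The first table holds the control 3xCTL, the line 3xSR, and the line MYC-OE. The second table holds the single plasmid control 1xCtrl and the lines SRSF2-OE, SRSF3-OE and SRSF7-OE. OE stands for overexpression, MYC is a transcription factor, and SRSF2, SRSF3 and SRSF7 are serine/arginine-rich (SR) splicing factors, which, as known of the study, 3xSR carries together. No treatment or time course is labelled, and the promoter of the plasmids and whether a line is a clone or a pool are not given in the sources used here. Each line was compared with the control of its own table. The question is whether raising these splicing factors, singly or together, moves the genes of DNA synthesis, and how that compares with raising MYC.

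Replication starts at origins that are licensed in G1: the origin recognition complex, with CDC6 and CDT1, loads the MCM helicase as an inactive double ring. In S phase CDC45, the GINS complex and MCM10 turn that ring into a moving helicase, polymerase alpha with primase lays down primers, and polymerases delta and epsilon extend them on the clamp PCNA, which the RFC complex loads. Most of these genes are transcribed as cells pass from G1 to S, when E2F factors are released from the retinoblastoma protein, and MYC is known to bind E-box elements in many of them. In bulk libraries such as these, fewer cells in S phase and less RNA per cell cannot be told apart.

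Some of the start regions of the genes carry the elements that this background names, and a selection of these is shown here. Promoter sequences came from RefSeq (GRCh38.p14), where 32 of the 37 genes had an entry, and the 250 bases before the start were searched on both strands. An E2F word, counted as any of TTTGGCGC, TTTCCCGC, TTTCGCGC or TTTGCCGC in either orientation with overlapping matches kept, stood in 14 of 32 windows (43.8%), against 2.8% of the 27305 windows of all genes. The E-box CACGTG stood in 4 of 32 (12.5%), those of MCM2, MCM7, FEN1 and RPA1, against 6.5% of all windows. The CCAAT box stood in 21 of 32 (65.6%) against 33.0%, and the cell cycle homology words TTTGAA or TTCGAA in 1 (3.1%), that of MCM6, against 14.6%. MCM7 held both an E2F word and an E-box, and 15 of the 32 windows held neither. A match describes the letters and shows no binding. E2F1 is shown over the window chr20:33686386-33686635, minus strand, with its pair of E2F words in capitals, which end 26 and 13 bases before the start, and E2F2 over chr1:23531234-23531483, minus strand, whose word ends 35 bases before the start:
E2F1: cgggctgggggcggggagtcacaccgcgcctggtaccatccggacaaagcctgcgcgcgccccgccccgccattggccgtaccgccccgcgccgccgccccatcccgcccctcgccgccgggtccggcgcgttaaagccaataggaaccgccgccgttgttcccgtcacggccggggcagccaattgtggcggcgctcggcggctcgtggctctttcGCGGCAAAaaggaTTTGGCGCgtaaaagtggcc
E2F2: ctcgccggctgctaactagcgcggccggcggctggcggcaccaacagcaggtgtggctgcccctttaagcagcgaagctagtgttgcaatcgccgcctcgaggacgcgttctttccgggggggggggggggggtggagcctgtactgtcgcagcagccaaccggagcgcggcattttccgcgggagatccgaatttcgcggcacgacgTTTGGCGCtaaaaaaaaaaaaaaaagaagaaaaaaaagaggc
Shorter stretches follow around the E2F word, in capitals, of MCM3 (chr6:52284898-52284927, minus strand), POLE (chr12:132687343-132687371, minus strand), PCNA (chr20:5126663-5126692, minus strand) and GINS2 (chr16:85688967-85688996, minus strand), and around the E-box, in capitals, of MCM2 (chr3:127598389-127598410, plus strand) and FEN1 (chr11:61792870-61792897, plus strand):
MCM3: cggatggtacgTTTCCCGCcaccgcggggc
POLE: tgggtgggagcGCGCCAAAtttctcccct
PCNA: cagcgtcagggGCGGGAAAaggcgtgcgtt
GINS2: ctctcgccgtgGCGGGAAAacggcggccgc
MCM2: ctttggtgggtCACGTGaacca
FEN1: ggcgagcaggtCACGTGacgggagcgcg
The words end 167, 11, 52, 24, 6 and 25 bases before the start, in that order. The start is the one that RefSeq lists for the gene. GENCODE 29 places the first base of MCM2, FEN1 and GINS2 further upstream, so that these stretches lie inside the annotated gene. The stretch of POLE and, of the E2F1 words, the one nearer the start lie inside their annotated genes in part. Each sequence reads 5′ to 3′ on the strand of its gene.

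Library totals ran from 143269192 to 303323552 counts. Levels are given as CPM, counts scaled to a common library size with edgeR's TMM factors within a table. The targeted genes were checked first. SRSF3 and SRSF7 rose in 3xSR (log2 fold change 0.31 and 0.44), SRSF3 in SRSF3-OE (0.49), SRSF7 in SRSF7-OE (0.26), and MYC in MYC-OE (0.90) and also in 3xSR (0.75). Targeted genes also differed in other lines not labelled for them. In the libraries labelled SRSF2-OE, SRSF3 and SRSF7 had means of 460 and 428 CPM, against 375 and 363 in 1xCtrl. MYC had means of 159 CPM in SRSF3-OE and 161 in SRSF7-OE, against 133 in 1xCtrl. SRSF2 was lower in SRSF7-OE, with a mean of 340.5 CPM against 444 in 1xCtrl, and in MYC-OE, with a mean of 289.9 CPM against 403.2 in 3xCTL. SRSF2 was not higher where its label says so: it stood at 442, 414 and 476 CPM in the control libraries and at 376, 407 and 412 CPM in the libraries labelled SRSF2-OE, with a log2 difference of -0.16 (adjusted p = 0.098), and it differed by -0.065 in 3xSR. A direction given below for the libraries labelled SRSF2-OE therefore rests on the label alone. The 8 basal epithelial markers summed to between 5101 and 6146 CPM in every library, the 5 luminal and receptor markers to between 137 and 236 CPM, and 7 markers of other cell types to between 36.3 and 59.4 CPM. Of these the T cell marker CD3E lay under 0.1 CPM in all 21 libraries and the leukocyte marker PTPRC between 0.126 and 0.539 CPM, with PECAM1 and DCN at most at 0.149 and 0.507 CPM, and the collagen gene COL1A1 between 5.46 and 15.7 CPM. The stromal marker LUM stood at 35.6, 39.7 and 37.6 CPM in 3xCTL, 16.5, 16.3 and 15.1 CPM in 3xSR and 9.17, 9.42 and 8.29 CPM in MYC-OE, and at 22.6, 15.9 and 21.7 CPM in 1xCtrl, above every library of the single lines (5.51 to 12.8 CPM). The macrophage marker CD68 went the other way, at 8.99, 5.92 and 10.6 CPM in 3xCTL, 20.3, 16.3 and 17.5 CPM in 3xSR and 32.1, 36.1 and 35.6 CPM in MYC-OE, and at 11.8, 15.6 and 9.13 CPM in 1xCtrl and 20.1 to 32.1 CPM in the single lines. The part of these genes in the results was not tested.

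A library in each control stood apart along GC content. In 1xCtrl replicate 2 the deviation of the 37 genes from their group rose with the GC content of the transcript (Pearson r = 0.846 over the genes, which share the library, and 0.607 over 23775 genes), and in 3xCTL replicate 2 it fell (r = -0.836, and -0.462 over 22642 genes). These are descriptions across genes and carry no test. POLD1, the catalytic subunit of polymerase delta and among the most GC-rich of the list, stood at 33.5, 75.5 and 26.6 CPM in 1xCtrl and at 60.3, 33.4 and 53.8 CPM in 3xCTL. The middle value of each trio is replicate 2, which was the highest of its group in 1xCtrl and the lowest in 3xCTL. CDT1, which loads the helicase with CDC6, stood at 14, 25.6 and 13.2 CPM and at 22.9, 14.8 and 19 CPM in the same libraries, again with replicate 2 at opposite ends. Results that rest on these libraries are therefore given with and without them.

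**Figure D1:**
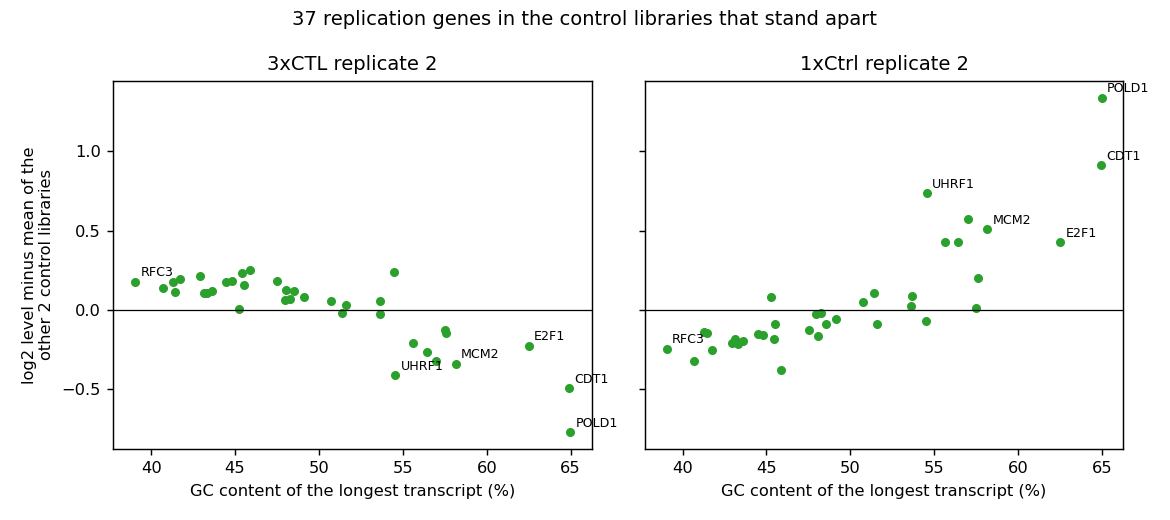
The log2 level of each of the 37 genes in replicate 2 of each control minus its mean in the other 2 control libraries, against the GC content of its longest transcript in percent; each point is 1 gene. GC-rich genes such as POLD1 and CDT1 lie below 0 in 3xCTL replicate 2 and above 0 in 1xCtrl replicate 2.

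Against the controls, more genes of the list fell than rose in 3xSR and in MYC-OE. More rose than fell in the 3 single lines, a split that turned round when each was fitted with its control alone. In 3xSR 15 of the 37 genes fell and 1 rose, which is 43.2% of them where 29.0% of the 23160 genes tested were called (13.7% lower and 15.3% higher), and their median log2 fold change was -0.17 against -0.0038 for all genes. In MYC-OE 10 fell and 2 rose (32.4%, where 35.3% of all genes were called, 17.3% lower and 18.0% higher), with a median of -0.065 against -0.0046. In the libraries labelled SRSF2-OE 7 rose and 2 fell (24.3%, where 23.5% of 24362 genes were called, 11.6% higher and 11.9% lower), with a median of 0.051. In SRSF3-OE 9 rose and 4 fell (35.1%, where 29.2% were called, 15.0% higher and 14.1% lower), with a median of 0.11. In SRSF7-OE 8 rose and 6 fell (37.8%, where 17.3% were called, 9.03% higher and 8.26% lower), with a median of 0.060. The shares called in MYC-OE and in the libraries labelled SRSF2-OE were thus close to those of all genes. No share set beside all genes was matched by level. The lowest group mean of the 37 was 9.68 CPM (TIPIN in 1xCtrl), while all genes tested include lower ones. In data simulated for 3xSR, 57% of all genes changed 2-fold were recovered, and 94.7% of those at 5 CPM or more. A 2-fold change is larger than any change of the 37 genes, and recovery at their size was not simulated. How far level sets the shares was not tested. No fold change was large: the largest over the 5 comparisons was 0.53 on the log2 scale, that of MCM5 in 3xSR. Over the 5 comparisons 29 genes were called in at least 1, 12 of them lower wherever called, 9 higher wherever called and 8 in both directions; 3xSR and MYC-OE share a control, as do the 3 single lines.

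**Figure D2:**
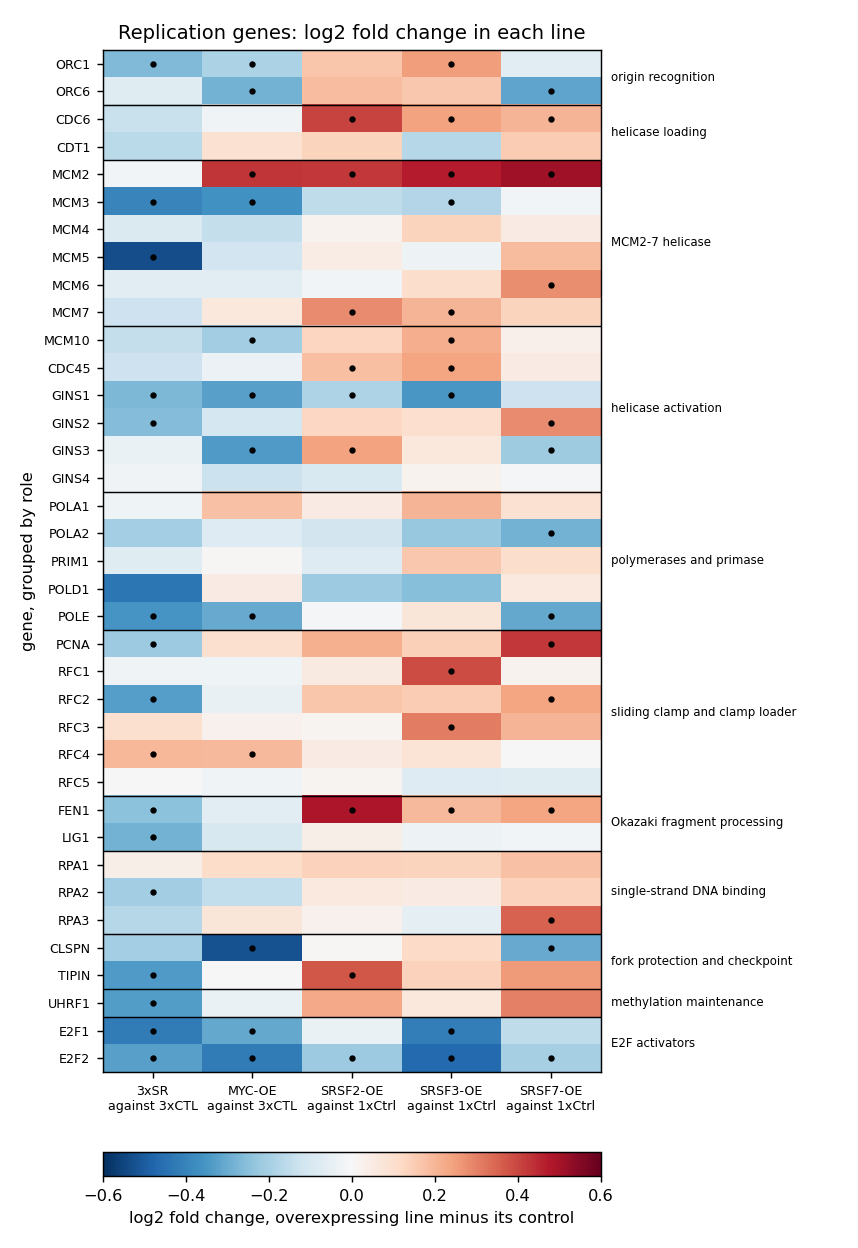
Log2 fold change of each of the 37 genes, in rows by role, for each line against the control of its own table, in columns; blue is lower and red higher than the control, and a dot marks an edgeR adjusted p under 0.05. The 3xSR column holds 15 blue and 1 red marked genes, and MCM2 is red and marked in the other 4 columns.

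The falls in 3xSR held up better than the rises in the single lines. Leaving out any 1 library gave between 11 and 19 genes lower in 3xSR, 19 of them without 3xCTL replicate 2, and removing the GC trend gave 20 lower and 2 higher. The single gene that rose, RFC4, was no longer called when any 1 library of the line or the control other than 3xCTL replicate 2 was left out. In MYC-OE the count of lower genes ran from 9 to 13 when any 1 library was left out, and removing the GC trend gave 14 lower and 3 higher. Counts of genes higher in the single lines were set by few libraries. In the libraries labelled SRSF2-OE they were 7 in all, 3 without 1xCtrl replicate 1, 14 without 1xCtrl replicate 2, and 4 without any 1 of the line's own libraries. In SRSF3-OE they were 9 in all, 2 without 1xCtrl replicate 1 or SRSF3-OE replicate 1, 4 without 1xCtrl replicate 3 and 3 without SRSF3-OE replicate 3, while the count of lower genes went from 4 to 7 without 1xCtrl replicate 2. In SRSF7-OE they were 8 in all, 4 without 1xCtrl replicate 1 or SRSF7-OE replicate 1 or 2, 3 without SRSF7-OE replicate 3, and 12 without 1xCtrl replicate 2, and lower genes went from 6 to 3 without SRSF7-OE replicate 2 or 3. Scaling moved the split as well. In SRSF3-OE 4 genes were higher and 5 lower with upper-quartile scaling, and 1 higher and 6 lower with library totals alone, which shifted the median of all genes by -0.11. In the libraries labelled SRSF2-OE the split was 5 higher and 3 lower with library totals alone. With only the line and its control in the fit, 2 genes were higher and 3 lower in the libraries labelled SRSF2-OE, 2 higher and 3 lower in SRSF3-OE, and 1 higher and 3 lower in SRSF7-OE, so that in each more fell than rose. The same fit gave 13 lower in 3xSR and 1 higher and 10 lower in MYC-OE.

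The control libraries that stood apart also kept some genes from being called. Without 3xCTL replicate 2, CDT1, MCM7, CDC45 and POLD1 were also called lower and RFC3 higher in 3xSR, and MCM5, LIG1 and UHRF1 lower and POLA1 and RPA3 higher in MYC-OE. Without 1xCtrl replicate 2, ORC1, CDT1, MCM5, PCNA, RFC2, LIG1 and UHRF1 were also called higher and MCM3 and PRIM1 lower in the libraries labelled SRSF2-OE. In SRSF3-OE POLE was then higher and POLA2, RFC5 and RPA3 lower, and in SRSF7-OE CDT1, MCM5, MCM7 and UHRF1 were higher and GINS1 lower. UHRF1 was then at 0.51 in the libraries labelled SRSF2-OE (adjusted p = 0.0158) and 0.61 in SRSF7-OE (adjusted p = 0.00729), and MCM5 at 0.42 in SRSF7-OE (adjusted p = 0.000845) and -0.21 in MYC-OE without 3xCTL replicate 2 (adjusted p = 0.00448).

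Other calls ended with the settings of the fit, and this holds for the genes described below. A replicate block ended the calls of RFC4 in 3xSR and MYC-OE and of CDC45, GINS1 and MCM2 in the libraries labelled SRSF2-OE. It also ended those of MCM3 (adjusted p = 0.0554) and MCM10 in SRSF3-OE, and of CDC6, E2F2, GINS3, POLA2 and POLE in SRSF7-OE. With the compared groups alone RFC4, UHRF1 and PCNA were no longer called in 3xSR, RFC4 in MYC-OE, and CDC45, GINS3, MCM2, MCM7 and TIPIN in the libraries labelled SRSF2-OE. In SRSF3-OE CDC45, CDC6, E2F1, FEN1, MCM10, MCM2, MCM7 and ORC1 were lost, and in SRSF7-OE CDC6, E2F2, FEN1, GINS2, GINS3, MCM2, MCM6, POLE, RFC2 and RPA3 (adjusted p from 0.0509 to 0.257). With library totals alone the calls lost were RFC4 in MYC-OE, CDC45 and MCM2 in the libraries labelled SRSF2-OE, POLE in SRSF7-OE, and CDC45, CDC6, FEN1, MCM10, MCM2, MCM7, ORC1 and RFC3 in SRSF3-OE (adjusted p from 0.0514 to 0.326). With upper-quartile scaling they were CDC6, FEN1, MCM10, MCM7 and ORC1 in SRSF3-OE, CDC6 in SRSF7-OE, and GINS1 in the libraries labelled SRSF2-OE (adjusted p from 0.0562 to 0.18). With no filter they were CDC45 and MCM2 in the libraries labelled SRSF2-OE, FEN1, MCM10, MCM2 and MCM7 in SRSF3-OE, and E2F2, MCM2 and POLE in SRSF7-OE (adjusted p from 0.0542 to 0.213). RLE scaling ended the call of POLE in SRSF7-OE (adjusted p = 0.0511), limma-voom those of GINS1 in the libraries labelled SRSF2-OE and GINS3 in SRSF7-OE (adjusted p from 0.0506 to 0.0521), and a minimum of 10 counts in every library those of FEN1 and MCM7 in SRSF3-OE (adjusted p from 0.0501 to 0.0528).

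**Figure D3:**
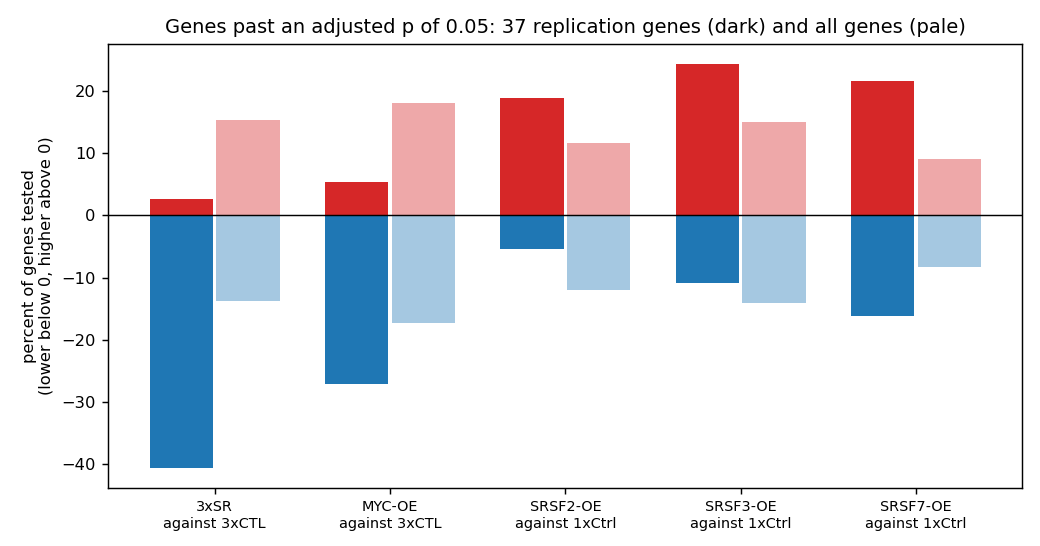
Percent of genes past an adjusted p of 0.05 in each comparison with a control, higher above 0 in red and lower below 0 in blue, for the 37 genes in dark and all genes tested in pale bars. In 3xSR the lower bar of the 37 genes is the longest of the plot, beside 13.7% of all genes.

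E2F2, an activating E2F factor whose own promoter carries the word shown above, was the only gene of the list called in the same direction in all 5 comparisons. It stood at 31.9, 29.1 and 31.6 CPM in 3xCTL, at 23.1, 24.6 and 26.1 CPM in 3xSR and at 22.6, 23.6 and 23 CPM in MYC-OE. In the second table it stood at 26.3, 26.1 and 25.5 CPM in 1xCtrl, 22.8, 22.6 and 21.6 in the libraries labelled SRSF2-OE, 18.1, 19 and 19.4 CPM in SRSF3-OE and 23.4, 22.2 and 22.3 in SRSF7-OE. Every library of the 5 lines lay below every library of its control. The log2 fold changes were -0.33 ± 0.062 (SE) in 3xSR (adjusted p = 0.00196), -0.42 ± 0.062 in MYC-OE (adjusted p = 0.000253), -0.22 ± 0.058 in the libraries labelled SRSF2-OE (adjusted p = 0.0145), -0.46 ± 0.058 in SRSF3-OE (adjusted p = 6.85e-05) and -0.20 ± 0.058 in SRSF7-OE (adjusted p = 0.0324). The first 4 calls held under every alternative run. That in SRSF7-OE was lost without SRSF7-OE replicate 2 (adjusted p = 0.076) or replicate 3 (adjusted p = 0.0704). It was also lost with no filter (adjusted p = 0.0542), with the compared groups alone (adjusted p = 0.106) and with a replicate block. With the GC trend removed the fold change in 3xSR was -0.17 (adjusted p = 0.0153). In 1xCtrl replicate 2, which stood apart, E2F2 lay between the other libraries of the control.

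E2F1, the other activator, is known to drive its own promoter and most of the genes described here. It stood at 66.7, 59.5 and 72.5 CPM in 3xCTL, 45.2, 52.1 and 51.2 CPM in 3xSR and 52.8, 53.7 and 54.2 CPM in MYC-OE, with no overlap between either line and the control. In the second table it stood at 56.9, 72.7 and 51.3 CPM in 1xCtrl, 57.2, 58.2 and 60.5 in the libraries labelled SRSF2-OE, 41.2, 48.8 and 45.8 CPM in SRSF3-OE and 54.5, 52.3 and 55.9 in SRSF7-OE. The SRSF3-OE libraries lay below all 3 of the control, and the other single lines overlapped it. E2F1 fell by 0.42 ± 0.075 (SE, log2) in 3xSR (adjusted p = 0.00126), by 0.31 ± 0.075 in MYC-OE (adjusted p = 0.00692) and by 0.41 ± 0.11 in SRSF3-OE (adjusted p = 0.00929). With the GC trend removed the 3xSR value was -0.18 (adjusted p = 0.0693), while E2F1 was then called lower in SRSF7-OE (adjusted p = 0.0164). Without SRSF3-OE replicate 1 the SRSF3-OE call was lost (adjusted p = 0.0739). Without 3xCTL replicate 2 the fold change in 3xSR was -0.49, and without 1xCtrl replicate 2 that in SRSF3-OE was -0.27 and remained past the threshold.

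**Figure D4:**
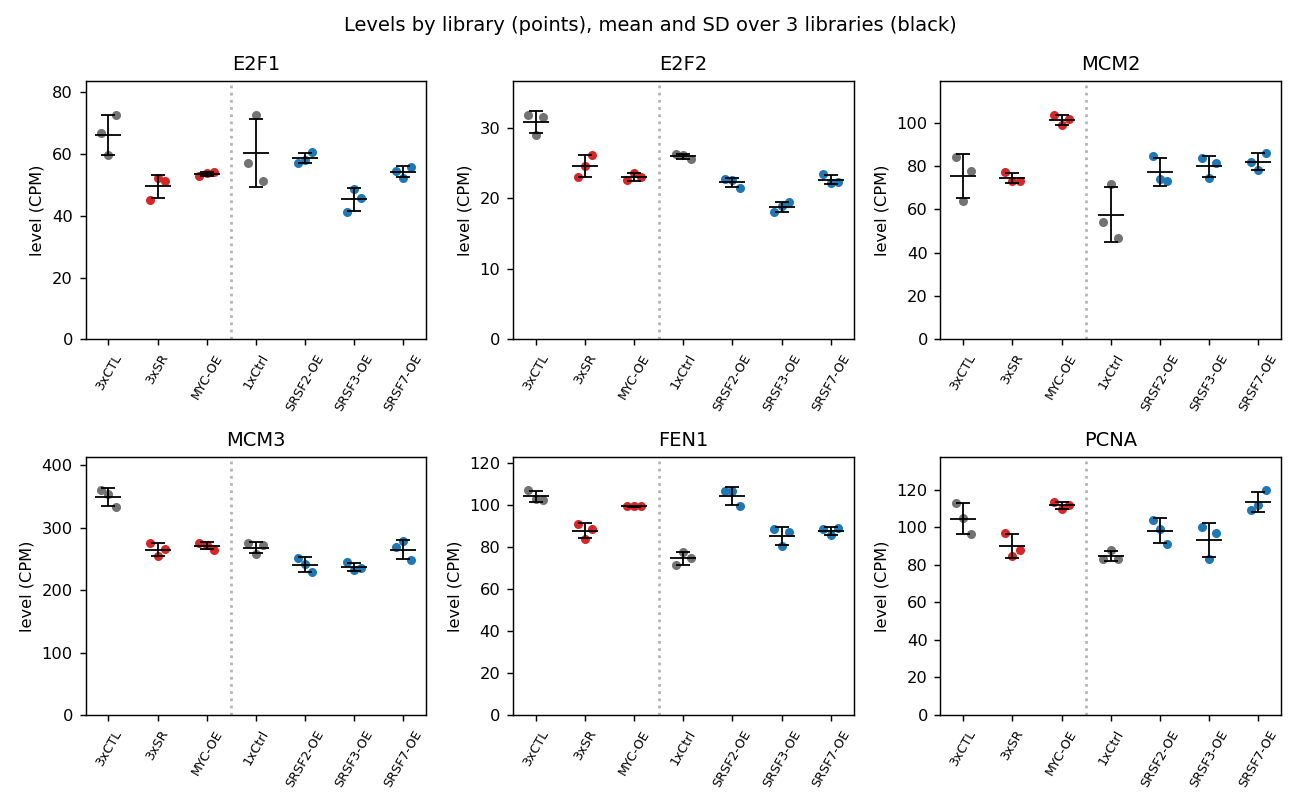
Level in CPM of 6 of the genes in each of the 21 libraries (points: grey, control; red, lines of the first table; blue, single lines), with the mean and SD over 3 libraries in black; a dotted line divides the tables, which were scaled apart. All points of E2F2 in the 5 lines lie below the points of the control beside them, and the 1xCtrl points of MCM2 run from 46.7 to 71.7 CPM.

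Of the factors that mark origins, ORC1 is the large ATP-binding subunit of the origin recognition complex and ORC6 its smallest. ORC1 fell in 3xSR (-0.26 ± 0.047, SE; adjusted p = 0.00131) and MYC-OE (-0.19 ± 0.047; adjusted p = 0.00837) and rose in SRSF3-OE (0.25 ± 0.063; adjusted p = 0.00927). The rise was lost when 1xCtrl replicate 1 or 3 or SRSF3-OE replicate 1 or 3 was left out (adjusted p = 0.119, 0.0702, 0.11 and 0.113). ORC6 stood at 52.4, 59.8 and 52.8 CPM in 3xCTL and at 45.4, 44.9 and 45.3 CPM in MYC-OE, and at 52, 49.99 and 56.9 CPM in 1xCtrl and 42.8, 41.9 and 42.7 CPM in SRSF7-OE. Neither pair of groups overlapped. ORC6 fell by 0.28 ± 0.056 in MYC-OE (adjusted p = 0.00198) and by 0.32 ± 0.067 in SRSF7-OE (adjusted p = 0.00617), in both cases under every alternative run. In 3xSR its libraries, at 52.2, 52.9 and 51.7 CPM, lay within or just below the range of the control (-0.073; adjusted p = 0.369).

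CDC6, the ATPase that recruits the helicase to origins, rose in the 3 single lines and did not pass the test in 3xSR or MYC-OE. It stood at 80.7, 78.2 and 85.6 CPM in 1xCtrl, 111, 108 and 104 in the libraries labelled SRSF2-OE, 102, 92.7 and 93.9 CPM in SRSF3-OE and 92.8, 98.4 and 90.6 in SRSF7-OE. All 9 libraries of the single lines lay above all 3 of the control. It rose by 0.40 ± 0.061 (SE, log2; adjusted p = 0.000453), 0.24 ± 0.061 (adjusted p = 0.00907) and 0.20 ± 0.061 (adjusted p = 0.0347), in that order. The first of these held under every alternative. The second was lost without 1xCtrl replicate 1 (adjusted p = 0.0634) or SRSF3-OE replicate 1 (0.0662), and the third without 1xCtrl replicate 1 or any SRSF7-OE library (from 0.0654 to 0.118). In the first table CDC6 stood at 109, 116 and 99.4 CPM in 3xCTL, 104, 93.8 and 97.3 in 3xSR and 110.1, 106 and 103 in MYC-OE, groups that overlap (-0.13, adjusted p = 0.141, and -0.022, adjusted p = 0.82). CDT1, whose level followed GC content in the controls, was called in none of the 5 comparisons. Its libraries ran at 18.1, 17.2 and 15.4 CPM in 3xSR, 19.7, 19.6 and 21.2 in MYC-OE, 19.9, 18.3 and 19.6 in the libraries labelled SRSF2-OE, 14.8, 16.1 and 15.9 CPM in SRSF3-OE and 19.1, 15.7 and 23.8 in SRSF7-OE, all within the range of the control of their table. Its fold changes, from -0.17 in SRSF3-OE to 0.15 in SRSF7-OE, carried standard errors of 0.13 or more, so that with all libraries a change of this size was not detectable. Without replicate 2 of the control CDT1 was lower in 3xSR (-0.31; adjusted p = 0.0112), and higher in the libraries labelled SRSF2-OE (0.50; adjusted p = 0.0209) and in SRSF7-OE (0.54; adjusted p = 0.0153). With the GC trend removed it was higher in the libraries labelled SRSF2-OE (0.21; adjusted p = 0.013).

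The subunits of the MCM helicase, which enter the ring in equal number, did not move as a unit. MCM2 stood at 84, 63.9 and 77.8 CPM in 3xCTL, 77.3, 73.1 and 72.9 CPM in 3xSR and 104, 98.7 and 101 CPM in MYC-OE. It stood at 54.3, 71.7 and 46.7 CPM in 1xCtrl, 84.8, 73.9 and 73.2 in the libraries labelled SRSF2-OE, 83.7, 74.2 and 81.2 CPM in SRSF3-OE and 82, 77.9 and 86.1 in SRSF7-OE. The MYC-OE libraries lay above every control library, the 3xSR libraries lay within the control's range, and the 9 single-line libraries lay above the 1xCtrl libraries, narrowly so above replicate 2. MCM2 rose by 0.43 ± 0.082 (SE, log2) in MYC-OE (adjusted p = 0.00157), under every alternative, and differed by -0.016 in 3xSR (adjusted p = 0.909). With the GC trend removed the 3xSR value was 0.15 and passed the threshold as higher (adjusted p = 0.0443). The rises in the single lines were 0.42 ± 0.13 in the libraries labelled SRSF2-OE (adjusted p = 0.0309), 0.47 ± 0.13 in SRSF3-OE (adjusted p = 0.0154) and 0.51 ± 0.13 in SRSF7-OE (adjusted p = 0.0173), and they share the control. Without 1xCtrl replicate 2 they were 0.61, 0.65 and 0.71 (adjusted p = 0.000242, 0.000129 and 0.000139), and with the GC trend removed 0.46, 0.62 and 0.50. Each of the 3 calls was lost when 1xCtrl replicate 1 or 3, or any 1 library of the line, was left out: the fold changes were then lowest without 1xCtrl replicate 3 (0.25, 0.29 and 0.34; adjusted p = 0.199, 0.118 and 0.0975). MCM2 shares 1158 exon bases with genes on the opposite strand (AC023593.1 and TPRA1) in GENCODE 29, and the strand setting of the counting is not given in the sources used here.

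MCM3 went the other way. It stood at 359.7, 355 and 333 CPM in 3xCTL, 275, 254 and 266 in 3xSR and 276, 272 and 265 in MYC-OE, with the lowest control library at 333 CPM and the highest library of either line at 276. It fell by 0.40 ± 0.05 (SE, log2) in 3xSR (adjusted p = 0.000105) and by 0.37 ± 0.05 in MYC-OE (adjusted p = 0.000134), under every alternative run, and by 0.18 ± 0.06 in SRSF3-OE (adjusted p = 0.042). Per kb of its longest transcript MCM3 was the highest of the 37 genes in 3xCTL, at 109 CPM per kb, followed by PCNA at 77.0. MCM5 stood at 92.1, 71.4 and 86.6 CPM in 3xCTL, 57.4, 60.9 and 54.8 in 3xSR and 76.8, 77 and 77.2 in MYC-OE. The 3xSR libraries were all below the control, which the MYC-OE libraries overlapped, and MCM5 fell in 3xSR by 0.53 ± 0.081 (adjusted p = 0.00043), the largest change of the list, again under every alternative. MCM6 rose in SRSF7-OE alone among the 5 comparisons (0.28 ± 0.067; adjusted p = 0.0127), and MCM7 rose in the libraries labelled SRSF2-OE (0.29 ± 0.063; adjusted p = 0.00523) and SRSF3-OE (0.21 ± 0.063; adjusted p = 0.0252). Both MCM7 calls were lost when 1xCtrl replicate 1 or 3, or any 1 library of the line, was left out (adjusted p from 0.0664 to 0.405). MCM4 was called in none, with fold changes from -0.14 to 0.13.

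Among the activators of the helicase GINS1, a subunit of the GINS complex that couples the ring to CDC45, fell in 4 of the 5 lines. It stood at 59.2, 62.4 and 56 CPM in 3xCTL, 49.7, 49.9 and 47.5 in 3xSR and 47.3, 47.9 and 46.3 in MYC-OE. It stood at 54.9, 51.4 and 58.6 CPM in 1xCtrl, 46.2, 48.9 and 49.9 in the libraries labelled SRSF2-OE, 42.8, 43.4 and 43.5 CPM in SRSF3-OE and 48.1, 52.6 and 50.8 in SRSF7-OE. All but the SRSF7-OE libraries lay below their control. The fold changes were -0.27 ± 0.052 (SE; adjusted p = 0.0021), -0.33 ± 0.052 (adjusted p = 0.000433), -0.19 ± 0.062 (adjusted p = 0.0451) and -0.35 ± 0.062 (adjusted p = 0.000932), in the order of the lines above, and the third of these was lost with upper-quartile scaling (adjusted p = 0.0741). The other subunits of the complex did not share this pattern. GINS2 fell in 3xSR (-0.26; adjusted p = 0.0039) and rose in SRSF7-OE (0.28; adjusted p = 0.00809). GINS3 fell in MYC-OE (-0.34; adjusted p = 0.00326) and SRSF7-OE (-0.21; adjusted p = 0.0414) and rose in the libraries labelled SRSF2-OE (0.24; adjusted p = 0.017), and GINS4 was called in none. The SRSF7-OE call of GINS3 was lost without 1xCtrl replicate 3 (adjusted p = 0.0507). CDC45 rose in the libraries labelled SRSF2-OE (0.18; adjusted p = 0.0319) and SRSF3-OE (0.23; adjusted p = 0.00596), and MCM10 fell in MYC-OE (-0.21; adjusted p = 0.0198) and rose in SRSF3-OE (0.22; adjusted p = 0.0341). The CDC45 calls were lost without 1xCtrl replicate 1 or 3 or any 1 library of the line (adjusted p from 0.055 to 0.352), and those of MCM10 without 3xCTL replicate 1, MYC-OE replicate 2 or 3, 1xCtrl replicate 1 or 2, or SRSF3-OE replicate 1 or 3 (from 0.0532 to 0.146).

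POLE, the catalytic subunit of the leading-strand polymerase epsilon, was the only polymerase gene called in more than 1 line. It stood at 391, 348 and 412 CPM in 3xCTL, 282, 316 and 305 in 3xSR and 303, 300.2 and 331 in MYC-OE, and at 285, 374 and 272 CPM in 1xCtrl and 262, 242 and 249 in SRSF7-OE. All 3 lines lay below their control without overlap. It fell by 0.35 ± 0.07 (SE, log2) in 3xSR (adjusted p = 0.00259) and by 0.30 ± 0.07 in MYC-OE (adjusted p = 0.00518), under every alternative run. The fall in SRSF7-OE, -0.31 ± 0.096 (adjusted p = 0.0444), was -0.14 without 1xCtrl replicate 2 (adjusted p = 0.0788) and was also lost without 1xCtrl replicate 1 or any 1 SRSF7-OE library (adjusted p from 0.0564 to 0.198). POLA2, the accessory subunit of polymerase alpha, fell in SRSF7-OE (-0.28 ± 0.084; adjusted p = 0.0347), a call lost without 1xCtrl replicate 1 or any 1 SRSF7-OE library (adjusted p from 0.0558 to 0.0713). POLA2 shares 35.1% of its exon bases with a gene on its own strand (AP000944.2), so that its counts are uncertain. POLA1, PRIM1 and POLD1 were called in none. POLD1 differed by -0.43 ± 0.2 in 3xSR (adjusted p = 0.144), a difference within the spread of its control libraries. Without 3xCTL replicate 2, the library that stood apart, it was lower in 3xSR (-0.65; adjusted p = 1.35e-05).

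PCNA, the sliding clamp, moved in opposite directions in 3xSR and SRSF7-OE. It stood at 113, 105 and 96.4 CPM in 3xCTL, 97.1, 84.5 and 88.1 in 3xSR and 113, 109.6 and 112 in MYC-OE. It stood at 83.1, 87.9 and 82.8 CPM in 1xCtrl, 104, 99.1 and 91.1 in the libraries labelled SRSF2-OE, 99.9, 82.9 and 97 CPM in SRSF3-OE and 109, 112 and 119.6 in SRSF7-OE. The SRSF7-OE libraries all lay above the control, while the highest 3xSR library overlapped the lowest control library. PCNA rose by 0.42 ± 0.076 (SE, log2) in SRSF7-OE (adjusted p = 0.00258), under every alternative. It fell by 0.22 ± 0.067 in 3xSR (adjusted p = 0.0283), a call lost without 3xCTL replicate 1 or 3xSR replicate 2 or 3 (adjusted p = 0.0825, 0.0877 and 0.102). In MYC-OE it differed by 0.094 (adjusted p = 0.31), in the libraries labelled SRSF2-OE by 0.21 (adjusted p = 0.0597) and in SRSF3-OE by 0.14 (adjusted p = 0.195).

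The loader of the clamp, replication factor C, has RFC1 as its large subunit and RFC2 to RFC5 as small ones, and these too moved apart. RFC1 stood at 77.1, 66.9 and 81.9 CPM in 1xCtrl and 104, 92.8 and 98.9 CPM in SRSF3-OE, and RFC3 at 83.7, 71.4 and 85.3 and 106, 97 and 94.7 CPM in the same groups, with no overlap. RFC1 rose there by 0.39 ± 0.078 (SE, log2; adjusted p = 0.00216) under every alternative, and RFC3 by 0.31 ± 0.077 (adjusted p = 0.00878). In none of the other 4 lines was either called. RFC2 fell in 3xSR (-0.33 ± 0.058; adjusted p = 0.0012), under every alternative, and rose in SRSF7-OE (0.23 ± 0.059; adjusted p = 0.0152), where the call was lost without 1xCtrl replicate 1 or 3 or any 1 SRSF7-OE library (adjusted p from 0.0618 to 0.106). RFC4 stood at 79, 93.9 and 80.7 CPM in 3xCTL, 97.2, 94.4 and 99.9 in 3xSR and 97.8, 94.5 and 98.4 in MYC-OE. Both lines lay above the control, whose replicate 2 came closest to them, and RFC4 rose by 0.20 ± 0.064 in 3xSR (adjusted p = 0.0351) and 0.20 ± 0.064 in MYC-OE (adjusted p = 0.032). Each call was lost when any 1 library of the line or the control other than 3xCTL replicate 2 was left out (adjusted p from 0.0552 to 0.141). RFC5 was called in none of the 5 comparisons.

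FEN1, the nuclease that trims flaps of Okazaki fragments, fell in 3xSR and rose in the single lines. It stood at 107, 103 and 102 CPM in 3xCTL, 90.9, 84 and 88.7 in 3xSR and 99.3, 99.4 and 99.6 in MYC-OE. It stood at 71.3, 77.7 and 74.9 CPM in 1xCtrl, 107, 107 and 99.5 in the libraries labelled SRSF2-OE, 88.5, 80.6 and 87.2 CPM in SRSF3-OE and 88.7, 85.7 and 89.1 in SRSF7-OE. Every library of the 3 single lines lay above the control, and every 3xSR library lay below its own. The log2 fold changes were -0.25 ± 0.047 (SE) in 3xSR (adjusted p = 0.00219), 0.48 ± 0.058 in the libraries labelled SRSF2-OE (adjusted p = 8.76e-05), 0.20 ± 0.058 in SRSF3-OE (adjusted p = 0.0223) and 0.23 ± 0.058 in SRSF7-OE (adjusted p = 0.0146). The first pair held under every alternative, and the others were lost without 1xCtrl replicate 1 or 3 or any 1 library of the line (adjusted p from 0.0618 to 0.366). LIG1, the ligase that seals the fragments, fell in 3xSR (-0.29 ± 0.075; adjusted p = 0.013), a call lost without 3xCTL replicate 1 or 3 or 3xSR replicate 1 (adjusted p from 0.0502 to 0.0608).

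Of the RPA subunits, which coat single-stranded DNA at the fork, RPA3 rose in SRSF7-OE and RPA2 fell in 3xSR. RPA3 stood at 49.1, 37.9 and 49.1 CPM in 1xCtrl and 54.6, 60.2 and 59.1 CPM in SRSF7-OE, without overlap, and rose by 0.35 ± 0.089 (SE, log2; adjusted p = 0.0161). The value without SRSF7-OE replicate 3 was 0.32 (adjusted p = 0.0504). RPA2 fell in 3xSR by 0.21 ± 0.058 (adjusted p = 0.018), a call lost without 3xSR replicate 2 or 3 (adjusted p from 0.0534 to 0.0538), and RPA1 was called in none. CLSPN encodes claspin, which relays stalled forks to the checkpoint kinase CHK1. It stood at 58.3, 63 and 52.8 CPM in 3xCTL, 52.7, 47.1 and 51.3 in 3xSR and 42.8, 38.4 and 40.02 in MYC-OE, and at 53.7, 49.1 and 56 CPM in 1xCtrl and 43, 45.1 and 41 in SRSF7-OE. None of these lines overlapped its control. CLSPN fell by 0.52 ± 0.072 in MYC-OE (adjusted p = 0.000149) and by 0.30 ± 0.063 in SRSF7-OE (adjusted p = 0.00629), under every alternative run, and differed by -0.21 in 3xSR (adjusted p = 0.0507). TIPIN, a fork protection factor, fell in 3xSR (-0.34 ± 0.091; adjusted p = 0.0145) and rose in the libraries labelled SRSF2-OE (0.37 ± 0.091; adjusted p = 0.00945). The fall was lost without 3xSR replicate 2 or 3, and the rise without 1xCtrl replicate 1 or SRSF2-OE replicate 1 (adjusted p from 0.0504 to 0.0643). TIPIN shares 579 of its 2755 exon bases with a gene on its own strand (RPL9P25), so that its counts are uncertain. UHRF1, which guides maintenance methylation behind the fork, fell in 3xSR (-0.33 ± 0.098; adjusted p = 0.0256), but not with the GC trend removed (-0.24; adjusted p = 0.063) nor without any 1 library of 3xSR or 3xCTL other than 3xCTL replicate 2 (adjusted p from 0.0661 to 0.0915).

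Lines of the same table were also set against each other. Against 3xSR, 11 of the 37 genes were higher in MYC-OE and 3 were lower (37.8%, where 34.9% of all genes were called, 17.3% higher and 17.6% lower). The share called in either direction was thus close to that of all genes. MCM2 (0.44 ± 0.082, SE; adjusted p = 0.00143), MCM5 (0.42 ± 0.081; adjusted p = 0.00192) and PCNA (0.31 ± 0.067; adjusted p = 0.00352) were among the higher genes, with TIPIN, UHRF1, RFC2, RPA3, POLA1, MCM7, FEN1 and GINS2. CLSPN (-0.32 ± 0.072; adjusted p = 0.00514), GINS3 (-0.30; adjusted p = 0.00767) and ORC6 (-0.21; adjusted p = 0.0127) were lower. The count of higher genes was 7 without 3xSR replicate 2, 5 without 3xSR replicate 3, 6 without MYC-OE replicate 1 and 7 without MYC-OE replicate 2. The E2F factors, lower than the control in both lines, did not pass the test between them (0.11 for E2F1 with adjusted p = 0.266, and -0.092 for E2F2 with adjusted p = 0.281).

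Among the single lines, SRSF3-OE and the libraries labelled SRSF2-OE differed in 5 genes (13.5%, where 26.8% of all genes were called, 14.1% higher and 12.6% lower). This share was below that of all genes. RFC1 (0.34 ± 0.078, SE; adjusted p = 0.00642) and RFC3 (0.29 ± 0.077; adjusted p = 0.0135) were higher in SRSF3-OE, and E2F1 (-0.37; adjusted p = 0.0181), FEN1 (-0.29; adjusted p = 0.00269) and E2F2 (-0.24; adjusted p = 0.00714) were lower. The count of lower genes was 5 without SRSF2-OE replicate 3, and the split was 1 higher and 7 lower with upper-quartile scaling and 2 and 7 with library totals alone. SRSF7-OE was higher than the libraries labelled SRSF2-OE in 2 genes, MCM6 (0.29; adjusted p = 0.00639) and RPA3 (0.33; adjusted p = 0.0166), and lower in 7. The share called was 24.3%, close to the 24.2% of all genes (12.8% higher and 11.5% lower). The lowest of the 7 was ORC6 (-0.50 ± 0.067; adjusted p = 0.000172), followed by GINS3, CLSPN, POLE, FEN1, ORC1 and CDC6. Without SRSF2-OE replicate 1 the split was 4 higher and 3 lower, as it was without SRSF7-OE replicate 1, and 4 were lower without SRSF2-OE replicate 2 or SRSF7-OE replicate 3. With library totals alone it was 7 higher and 5 lower. SRSF7-OE was higher than SRSF3-OE in 5 genes and lower in 7 (32.4%, where 35.2% of all genes were called, 17.3% higher and 17.8% lower), again close to the share of all genes. With library totals alone, which shifted the median of all genes by 0.11, the split was 10 and 5. RPA3 (0.41 ± 0.089; adjusted p = 0.00299), PCNA, E2F2, GINS1 and GINS2 were higher, and ORC6 (-0.48 ± 0.067; adjusted p = 0.000104), CLSPN, POLE, RFC1, ORC1, GINS3 and CDC45 were lower. The count of higher genes was 3 without SRSF3-OE replicate 2.

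To ask whether the joint line equals the sum of the single lines, the 3xSR fold change was set against the sum of the fold changes of the libraries labelled SRSF2-OE, SRSF3-OE and SRSF7-OE, with the difference tested in 1 fit of both tables. The difference passed the threshold for 12 of the 37 genes (32.4%), where 19.9% of 25013 genes were called (11.3% higher and 8.59% lower). In 10 the joint line lay below the sum and in 2 above it, and the median difference of the 37 was -0.39 against 0.14 for all genes. FEN1 differed by -1.13 ± 0.14 (SE, log2; adjusted p = 1.69e-05), with 3xSR at -0.25 and the sum at 0.91. CDC6 differed by -0.95 ± 0.16 (adjusted p = 0.00038), with 3xSR at -0.13 and the sum at 0.85. MCM2 differed by -1.39 ± 0.33 (adjusted p = 0.0065), PCNA by -0.97 ± 0.21 (adjusted p = 0.00232) and RFC2 by -0.86 ± 0.15 (adjusted p = 0.00045). E2F2 lay above the sum, by 0.59 ± 0.14 (adjusted p = 0.00595): it fell in all 4 lines, and by less in 3xSR than the single falls add up to. The sum uses the 1xCtrl libraries with a weight of 3, and the levels of the controls themselves were not the same. FEN1, for example, had a mean of 104 CPM in 3xCTL and 74.6 in 1xCtrl, so the effect of combining the factors cannot be told apart from the difference between the tables and their controls. Of the 12 differences, that of GINS1 (0.41; adjusted p = 0.0362) was lost under 15 of 27 alternatives, and the others under none.

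**Figure D5:**
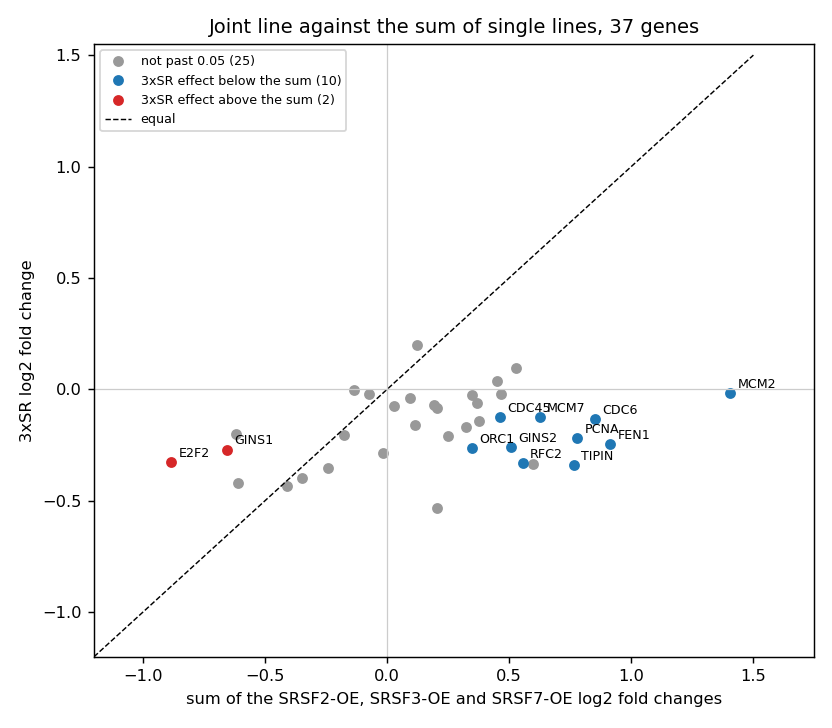
The log2 fold change of each of the 37 genes in 3xSR against the sum of its log2 fold changes in the libraries labelled SRSF2-OE, SRSF3-OE and SRSF7-OE; the dashed line marks equality, and colour marks the 10 genes below (blue) and 2 above (red) it with an edgeR adjusted p under 0.05 for the difference. MCM2 lies farthest right, at a sum of 1.41 with 3xSR at -0.016.

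Other genes of the pathway, from further lists set for this report, put these values in context. Of 36 further replication genes, 3 rose and 6 fell in 3xSR, 1 rose and 8 fell in MYC-OE, 5 rose and 1 fell in the libraries labelled SRSF2-OE, 7 rose and 2 fell in SRSF3-OE, and 4 rose and 3 fell in SRSF7-OE. The shares called were 25.0%, 25.0%, 16.7%, 25.0% and 19.4% in that order, below those of all genes (29.0%, 35.3%, 23.5% and 29.2%) in the first 4 lines and close to it (17.3%) in SRSF7-OE, so these counts do not set the list apart. ASF1B, a histone chaperone of the fork, fell in 3xSR (-0.86; adjusted p = 1.52e-07) and SRSF3-OE (-0.37; adjusted p = 0.000895), and ORC4 rose in 3xSR (0.44; adjusted p = 0.00165), the opposite of ORC1. DNMT1, the maintenance methyltransferase, fell in MYC-OE (-0.50; adjusted p = 2.39e-05). POLE4, a small subunit of polymerase epsilon, rose in the libraries labelled SRSF2-OE (0.66; adjusted p = 0.000257), SRSF3-OE (0.59; adjusted p = 0.000367) and SRSF7-OE (0.46; adjusted p = 0.00441), where POLE itself differed by -0.009, 0.073 and -0.31.

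Of the 9 genes that supply nucleotides in S phase, 1 rose and 3 fell in 3xSR, 1 rose and 2 fell in MYC-OE, 3 rose and 1 fell in SRSF3-OE as in the libraries labelled SRSF2-OE, and 4 rose in SRSF7-OE. The shares called were 33.3% in MYC-OE and 44.4% in the other 4, where the share of all genes was 35.3% in MYC-OE and from 17.3% to 29.2% in the others. DUT, which clears dUTP, fell in 3xSR (-0.72; adjusted p = 1.84e-05) and MYC-OE (-0.73; adjusted p = 1.1e-05), and thymidine kinase TK1 fell in 3xSR (-0.60; adjusted p = 0.00473). RRM2, a subunit of ribonucleotide reductase, rose in the libraries labelled SRSF2-OE (0.32; adjusted p = 0.00546). Of 27 tested genes of E2F, RB and G1-S control, 9 rose and 7 fell in 3xSR, 7 rose and 10 fell in MYC-OE, 8 rose and 2 fell in the libraries labelled SRSF2-OE, 9 rose in SRSF3-OE, and 5 rose and 1 fell in SRSF7-OE. The shares called were 59.3%, 63.0%, 37%, 33.3% and 22.2% in that order, beside 29.0%, 35.3%, 23.5%, 29.2% and 17.3% of all genes. They were close to the share of all genes in SRSF3-OE and SRSF7-OE and above it in the other lines. CDKN1A, the CDK inhibitor p21, rose in all 5 (1.08, 0.83, 1.10, 1.07 and 0.45 in the same order). Its levels were 18.4, 14.6 and 16.7 CPM in 3xCTL and 35.8, 33.8 and 35.1 CPM in 3xSR, and 19.6, 22.7 and 20.1 CPM in 1xCtrl and 28.7, 28.7 and 27.6 CPM in SRSF7-OE. CCNE2, a cyclin of S phase entry, fell in MYC-OE (-0.58; adjusted p = 4.44e-05), and CCNE1 rose in the libraries labelled SRSF2-OE (0.71; adjusted p = 4.39e-06). Of 25 mitosis genes 4 rose and 5 fell in 3xSR and 11 rose and 1 fell in MYC-OE, 7 rose in the libraries labelled SRSF2-OE, 7 rose and 1 fell in SRSF3-OE, and 4 rose and 1 fell in SRSF7-OE. The shares called were 36.0%, 48.0%, 28.0%, 32.0% and 20.0%. They were above the share of all genes in 3xSR and MYC-OE and close to it in the 3 single lines. The kinase AURKA rose in 3xSR and MYC-OE (0.50 and 0.67; adjusted p = 4.41e-05 and 3.01e-06). The part of these genes in the changes of the 37 was not tested.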

How the data were processed

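The authors deposited counts per gene for 21 RNA-seq libraries as whole numbers in 2 tables of 60668 gene rows each. Per the labels, RNA was selected by polyA and sequenced from a stranded kit as 150 bp paired-end reads. The submitters' processing notes name Trimmomatic 0.39, STAR, StringTie 2.1.3b and GRCh38.p13 without roles. How the counts were made, the annotation release and the strand setting are not given in the sources used here. Totals ran from 143269192 to 303323552 counts per library.

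The counts were tested as deposited with edgeR 4.0.16 (R 4.3.3): genes filtered by filterByExpr (minimum count 10, minimum total 15), TMM scaling, the robust quasi-likelihood test, and Benjamini-Hochberg adjustment over all genes tested with a threshold of 0.05. Each table was fitted once over all its groups. The difference between 3xSR and the sum of the single lines came from 1 fit of both tables. Standard errors are the absolute log2 fold change over the square root of F. On simulated data 94.7% of 95 genes at 5 CPM or more with a 2-fold change were recovered for 3xSR (22559 genes), and 91.9% of 74 for the libraries labelled SRSF2-OE (23772 genes). Of the calls, 7.32% and 3.45% were false. Changes smaller than 2-fold and the GC shifts of single libraries were not simulated.

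The 37 genes, their roles and the further lists were chosen with earlier results of these data known. All 37 may be named. E2F1, E2F2, CDC6, CDT1, MCM2 and PCNA and, per comparison with a control, the 3 highest and 3 lowest called genes are shown by library. Of each further list only the 2 highest and 2 lowest called genes of a comparison may be named. The labels give no separate cultures, so p-values measure the spread between these libraries, which may be technical. Replicates of a group differed by more than sampling noise (chi-square over its degrees of freedom, 15.9 to 275.1). Exon overlaps came from GENCODE 29 (GRCh38): 5 of the 37 genes share exon bases with a gene on the same strand and 11 only with one on the opposite strand, which unstranded counting could mix. Alternatives were RLE, upper-quartile and total-count scaling, no filter, at least 10 counts in every library, DESeq2 1.42.0, limma-voom (limma 3.58.1), a replicate block, removal of the GC trend over 50 bins, the compared groups alone, and each library left out.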

Additional observations from a re-analysis of the deposited data

Results flagged for a closer look

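For 12 of the 37 genes the log2 fold change in 3xSR differed from the sum of the log2 fold changes in the libraries labelled SRSF2-OE, SRSF3-OE and SRSF7-OE in edgeR's test of that difference. The joint line lay below the sum for ORC1 (-0.58, adjusted p = 0.00567), CDC6 (-0.95, adjusted p = 0.00038), MCM2 (-1.39, adjusted p = 0.0065), MCM7 (-0.72, adjusted p = 0.00268) and CDC45 (-0.56, adjusted p = 0.00363). It also lay below the sum for GINS2 (-0.74, adjusted p = 0.0011), PCNA (-0.97, adjusted p = 0.00232), RFC2 (-0.86, adjusted p = 0.00045), FEN1 (-1.13, adjusted p = 1.69e-05) and TIPIN (-1.08, adjusted p = 0.00326). It lay above the sum for GINS1 (0.41, adjusted p = 0.0362) and E2F2 (0.59, adjusted p = 0.00595). The lines being summed were measured against another control in another table, and this cannot be told apart from an effect of joining the factors.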

How the results depend on the processing

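Counts of the 37 genes called are given as higher or lower in the first-named group, with the cause of each shift not tested. Of the genes called against a control under the settings of the report, 9 of 16 in 3xSR, 10 of 12 in MYC-OE and 3 of 9, 3 of 13 and 3 of 14 in the libraries labelled SRSF2-OE, SRSF3-OE and SRSF7-OE were called under every alternative, and none of them changed sign. With the GC trend removed the counts were 2 higher in 3xSR, 14 higher in SRSF3-OE, 5 lower in MYC-OE against 3xSR, 6 higher and 7 lower in SRSF3-OE against SRSF2-OE, 7 higher in SRSF7-OE against SRSF2-OE and 19 below the sum of the single lines. With the compared groups alone they were 0 higher in 3xSR, 1 in MYC-OE, 2 in SRSF3-OE, 1 in SRSF7-OE and 2 in the libraries labelled SRSF2-OE, 3 lower in SRSF7-OE, 9 lower in SRSF3-OE against SRSF2-OE, and 6 and 9 higher in SRSF7-OE against SRSF2-OE and SRSF3-OE. With total counts alone they were 1 higher in MYC-OE and in SRSF3-OE, 7 lower in SRSF3-OE against SRSF2-OE, and 7 and 10 higher in SRSF7-OE against SRSF2-OE and SRSF3-OE. With upper-quartile scaling they were 1 lower in the libraries labelled SRSF2-OE, 4 higher in SRSF3-OE, and 1 higher and 7 lower in SRSF3-OE against SRSF2-OE. With no filter they were 5 higher in SRSF3-OE, 5 lower in SRSF3-OE against SRSF2-OE, 5 higher and 4 lower in SRSF7-OE against SRSF2-OE, and 1 above the sum. With at least 10 counts in every library they were 7 lower in SRSF3-OE against SRSF2-OE and 8 higher in SRSF7-OE against SRSF3-OE. With limma-voom 1 was lower in the libraries labelled SRSF2-OE, and with RLE scaling or DESeq2 1 lay above the sum.

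Leaving out 1 library at a time gave 0 to 2 higher in 3xSR, 1 to 4 higher in MYC-OE, 3 to 14 higher and 2 to 4 lower in the libraries labelled SRSF2-OE, 2 to 9 higher and 4 to 7 lower in SRSF3-OE, and 3 to 12 higher and 3 to 6 lower in SRSF7-OE. It gave 5 to 10 higher in MYC-OE against 3xSR, 2 to 5 lower in SRSF3-OE against SRSF2-OE, 2 to 4 higher and 3 to 6 lower in SRSF7-OE against SRSF2-OE, 3 to 7 higher in SRSF7-OE against SRSF3-OE, and 1 to 2 above the sum.

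Signs turned only in genes not called against the control under the settings of the report. Of these, MCM2 in 3xSR was called after the turn, with the GC trend removed (adjusted p = 0.0443). With the GC trend removed CDT1 was 0.13 in 3xSR, -0.034 in MYC-OE, -0.013 in SRSF7-OE and 0.052 in SRSF3-OE, MCM2 was 0.15 in 3xSR, and E2F1 was 0.027 in the libraries labelled SRSF2-OE. Leaving out 1 library took MCM2 in 3xSR from -0.12 to 0.055, CDC6 in MYC-OE from -0.075 to 0.031, CDT1 from -0.056 to 0.25 in MYC-OE, -0.089 to 0.50 in the libraries labelled SRSF2-OE, -0.40 to 0.19 for SRSF3-OE and -0.056 to 0.54 for SRSF7-OE, and E2F1 from -0.19 to 0.11 in the libraries labelled SRSF2-OE and -0.29 to 0.016 in SRSF7-OE.

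The replicate numbers do not pair the libraries: the mean correlation of same-numbered deviations ran from -0.107 to 0.0118. A replicate block gave 0 higher and 15 lower in 3xSR, 1 higher in MYC-OE, 1 lower in the libraries labelled SRSF2-OE, 2 lower in SRSF7-OE (where E2F2 had an adjusted p of 0.0683) and 11 below the sum, and moved no other count of the 37 by more than 1.5 times.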
